A study of Arabidopsis lyrata subsp. lyrata and Arabidopsis thaliana with 7 samples.

Results

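The morning-phase clock genes of *Arabidopsis* described here are 8 genes, *CCA1* (AT2G46830), *LHY* (AT1G01060), *RVE1* (AT5G17300), *RVE8* (AT3G09600), *LNK1* (AT5G64170), *LNK2* (AT3G54500), *PRR9* (AT2G46790) and *PRR7* (AT5G02810). Their members in *A. lyrata* were taken as the gene models that list one of these genes as *A. thaliana* ortholog, which gave 8 models, 1 for each gene, of 32793 models in all and of 22143 models with a listed ortholog. The 8 genes were chosen on their read counts in these same libraries, since they had been seen to differ between the libraries of one tissue. Their levels and ratios are therefore given as a description, and no p-value of any of the 8 is given.

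The data are counts of poly-A RNA reads per gene in 7 libraries. *A. lyrata* subsp. *lyrata* MN47, the sequenced wild-type accession, was sampled as whole rosettes before flowering (2 libraries), as dissected shoot apices (1 library) and as whole inflorescences (2 libraries). *A. thaliana* Col-0, the laboratory wild type, was sampled as whole rosettes before flowering (2 libraries). All plants were untreated and grown in soil with 16 h of light and 8 h of dark. The labels give 21 °C, and the methods give *A. lyrata* a cooler temperature in the dark than in the light. Rosettes and apices came from plants of about 3 weeks with 5 leaves, and inflorescences from the main stem of flowering plants whose age the labels do not give. Neither the labels nor the methods give the hour of harvest, the number of plants per library or whether libraries of a group came from separate plantings. Hour of harvest, growth batch and library therefore cannot be told apart for any difference between libraries described below, and spread between the libraries of a group may be technical. For *A. lyrata* the paper lists shorter reads for inflorescences than for the apex and the replicated untreated rosettes. Read length therefore cannot be told apart from tissue where inflorescences are compared.

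The circadian clock of *Arabidopsis* is a loop of transcription factors that repress one another at successive times of day. Around dawn the Myb-like factors CCA1 and LHY accumulate and repress genes expressed later in the day. The pseudo-response regulators PRR9 and PRR7 follow during the day and repress *CCA1* and *LHY* in turn. RVE8 is a related Myb-like factor that activates afternoon and evening genes, and LNK1 and LNK2, which bind DNA only through partners, serve as its coactivators. RVE1 connects the clock to auxin production. Toward dusk *TOC1* and the evening complex of ELF3, ELF4 and LUX are expressed, and they repress morning genes until the next dawn. All of this is known from *A. thaliana*.

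Between 10556736 and 28347972 reads per library were counted in gene models. Levels are given as a gene's reads per 1000000 of these counted reads (CPM), or as CPM per kb of exon where genes are compared with one another. Leaf and floral marker genes followed the labelled tissues: 3 leaf markers summed to 23556 and 28136 CPM in the *A. lyrata* rosettes, against 3526 in the apex and 1595 to 2026 in the inflorescences. The 5 floral organ markers summed to 1384 and 1321 CPM in the inflorescences and to at most 4.92 CPM in the other *A. lyrata* libraries, and the 4 shoot meristem markers to 145 CPM in the apex, 106 and 114 CPM in the inflorescences and at most 3.88 CPM in the rosettes. *WUS*, which defines the organizing centre of the meristem, had only 2 reads in the apex (0.189 CPM), against 6.84 and 10.2 CPM in the inflorescences, and *CLV3*, which defines its stem cells, had 0 to 3 reads in every *A. lyrata* library. In bulk tissue fewer cells of a type and less RNA per cell cannot be told apart.

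The 8 *A. lyrata* models are spread over 6 scaffolds of the *A. lyrata* reference assembly. *CCA1* (AL4G44470, 22785163 to 22788405) and *PRR9* (AL4G44430, 22767363 to 22769933) lie near each other on the plus strand of scaffold 4. *LHY* (AL1G11390) lies on scaffold 1 at 504430 to 508748, and *RVE8* (AL3G20490) on scaffold 3 at 3808337 to 3810921, both on the plus strand. *RVE1* (AL6G27860, 7117745 to 7120474) and *PRR7* (AL6G12030, 755635 to 759879) lie on the minus strand of scaffold 6. *LNK1* (AL8G40100) lies on scaffold 8 at 21323733 to 21328045 and *LNK2* (AL5G34470) on scaffold 5 at 17043908 to 17047943, both on the minus strand. All 8 models were predicted by Augustus, and none overlaps another model. *LHY*, *RVE8*, *LNK1* and *LNK2* have 2 annotated transcripts and the others 1.

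The members fall into 3 protein families, and the values below follow these families. Among the *A. thaliana* proteins encoded by the RefSeq TAIR10.1 models, CCA1 (608 residues) and LHY (645 residues) shared 285 identical residues, 46.9% of the shorter protein. RVE1 and RVE8 shared 33.9% of the shorter protein, PRR9 and PRR7 39.5%, and LNK1 and LNK2 24.7%. For *A. lyrata* the study carried on with reads that aligned to a single place. Whether the count tables were made from those reads alone is not given in the sources used here, so the split of reads between *CCA1* and *LHY* carries that uncertainty.

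The DNA just upstream of the members was read from the *A. thaliana* genome, because the clock factors act through short motifs there. The 250 bases before each RefSeq TAIR10.1 gene start were searched on both strands for the G-box CACGTG, bound by basic helix-loop-helix and bZIP factors, the evening element AAAATATCT and the CCA1 binding site AAAAATCT, both bound by the CCA1, LHY and RVE factors. The G-box reads the same on both strands, the other motifs share letters at their ends, and no matches overlapped among the genes listed here. A G-box was found upstream of 5 of the 8 members, against 6.49% of 27443 protein-coding genes. The evening element was found upstream of none of the 8, against 2.36% of all genes, and the CCA1 binding site upstream of none, against 6.69%. Among 11 day and evening clock genes, 5 held an evening element (*PRR5*, *TOC1*, *LUX*, *BOA* and *FKF1*) and 2 a G-box. Of the 8 other *REVEILLE* and *LNK* genes, 4 held a G-box (*RVE2*, *RVE3*, *RVE5* and *LNK3*), so the G-box was not particular to the members. The windows of *RVE3* and *RVE5* overlapped a neighbouring gene, while no member window with a G-box did. The members' G-boxes are shown with their flanks, read 5′ to 3′ along the gene's strand with the G-box in capitals, since 5 of the 8 members hold one. They lie at chr2:19245383-19245418 (plus strand) for *CCA1*, chr1:37931-37966 (minus) for *LHY*, chr5:5693083-5693118 (minus) for *RVE1*, chr2:19232357-19232455 (plus) for *PRR9* and chr5:642211-642246 (minus) for *PRR7*.
CCA1: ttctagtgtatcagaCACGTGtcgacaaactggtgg
LHY: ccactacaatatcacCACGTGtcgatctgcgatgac
RVE1: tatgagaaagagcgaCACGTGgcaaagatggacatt
PRR9: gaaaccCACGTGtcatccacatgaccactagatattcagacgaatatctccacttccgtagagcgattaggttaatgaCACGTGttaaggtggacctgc
PRR7: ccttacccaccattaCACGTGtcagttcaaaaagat

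*PRR9* alone among the members held 2 G-boxes, which begin at bases -244 and -172 counted from its start, whereas the single G-box of *LHY* begins at base -80. For comparison, stretches with an evening element from *TOC1* at chr5:24674797-24674835 (plus strand), *FKF1* at chr1:25508438-25508476 (plus) and the clock-controlled output gene *GRP7* at chr2:9266565-9266648 (minus) are shown with the element in capitals in either orientation. These genes are used as the opposite phase in the comparisons below, and *GRP7* was picked out after its values were seen.
TOC1: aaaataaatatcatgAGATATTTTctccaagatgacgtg
FKF1: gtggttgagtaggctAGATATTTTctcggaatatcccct
GRP7: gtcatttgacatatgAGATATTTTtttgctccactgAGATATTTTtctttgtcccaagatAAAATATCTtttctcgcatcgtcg
A match is only a run of letters, and no binding was measured. Bases upstream of the *A. lyrata* models were not analysed here.

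The members were at very different levels in the rosette libraries of *A. lyrata*. In rosette replicate 2 the summed level of the 8 genes was 153 CPM, against 759 CPM in rosette replicate 1, 643 CPM in the apex and 1593 and 1682 CPM in the inflorescences. Of the 8 members, 7 were lower by 2-fold or more in replicate 2 than in replicate 1, and none was higher by that much, while 16.4% of 21869 models with at least 10 reads were lower and 4.62% higher. As these ratios chose the genes, nothing is read from that count. The median log2 ratio of replicate 2 over replicate 1 was -4.21 for the members and -0.16 for all models.

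**Figure D1:**
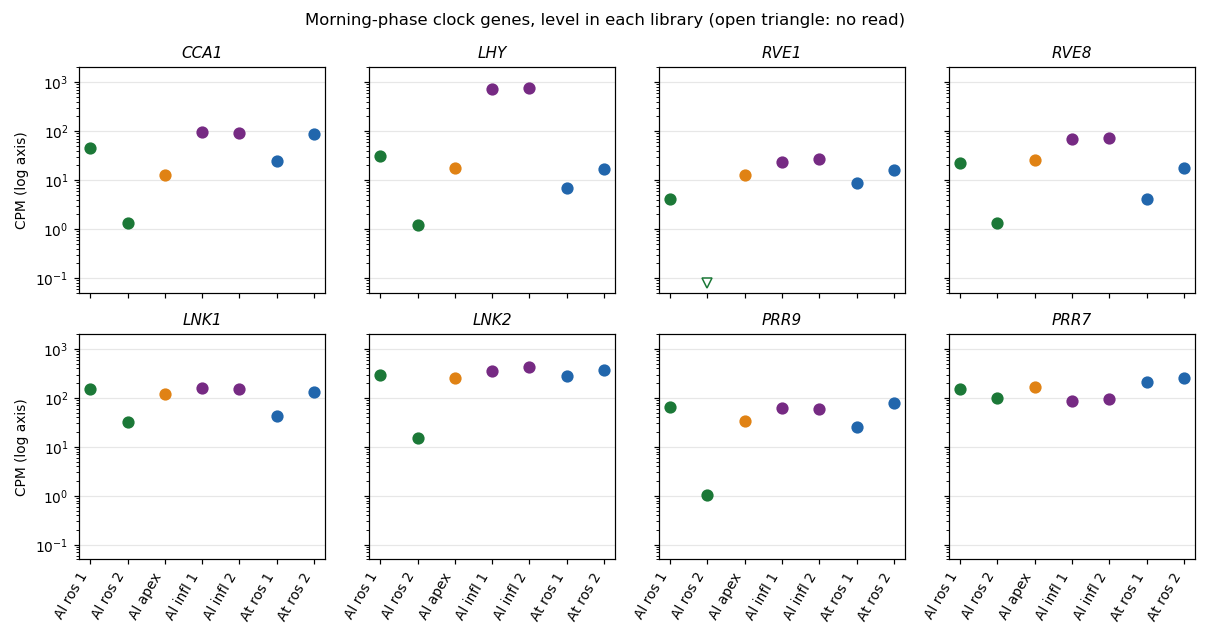
Level of each morning-phase clock gene in each library, as CPM on a log axis (Al, *A. lyrata*, At, *A. thaliana*, ros, rosette, infl, inflorescence). Each point is 1 library, colours mark the groups, and the open triangle marks a gene with no read, drawn at an arbitrary low position. *A. lyrata* rosette 2 is the lowest library for all genes except *PRR7*.

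*CCA1* counted 663 reads in rosette replicate 1 (45.9 CPM) and 18 in replicate 2 (1.35 CPM), with 134 in the apex (12.7 CPM) and 2684 and 2347 in the inflorescences (94.7 and 90.1 CPM). In the *A. thaliana* rosettes it counted 384 and 1133 reads (24.0 and 89.4 CPM). *CCA1* was thus 34.0-fold lower in the second *A. lyrata* rosette than in the first, with an exact 95% interval of 21.4 to 57.8 that covers counting error only. Every other library, including both of *A. thaliana*, stood above that second rosette.

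*LHY*, the closest relative of *CCA1*, counted 447 and 16 reads in the *A. lyrata* rosettes (31.0 and 1.20 CPM), 187 in the apex (17.7 CPM), and 20895 and 19833 in the inflorescences (737 and 761 CPM). Both inflorescences were far above every other library, and the *A. thaliana* rosettes were low, at 111 and 215 reads (6.95 and 17.0 CPM). The second *A. lyrata* rosette was 25.8-fold below the first (15.7 to 45.5). Per kb of exon *LHY* and *CCA1* parted in their levels: *LHY* was below *CCA1* in the first *A. lyrata* rosette (9.97 against 20.9 CPM per kb) and above it in inflorescences (241 against 42.0 CPM per kb).

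*RVE8* counted 328 and 18 reads in the *A. lyrata* rosettes (22.7 and 1.35 CPM), 278 in the apex (26.3 CPM), 1917 and 1923 in the inflorescences (67.6 and 73.8 CPM) and 66 and 226 in the *A. thaliana* rosettes (4.13 and 17.8 CPM). Its rosette ratio was 16.8-fold (10.5 to 28.8) in the same direction. *RVE1* had the fewest reads of the members in both *A. lyrata* rosettes, with 59 in replicate 1 (4.09 CPM) and none in replicate 2, where a count of 0 allows up to 0.225 CPM. *RVE1* was at least 14.3-fold lower in replicate 2 by the lower limit of the exact interval, and 18.2-fold lower with its 0 set at the floor of 3 reads per library. It counted 137 reads in the apex (12.98 CPM), 679 and 714 in the inflorescences (24.0 and 27.4 CPM) and 142 and 199 in *A. thaliana* (8.89 and 15.7 CPM), so that both *A. lyrata* rosettes were below all 5 other libraries.

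*LNK1* and *LNK2* encode the coactivators. *LNK1* counted 2179 and 438 reads in the *A. lyrata* rosettes (151 and 32.8 CPM), 1264 in the apex (120 CPM), 4589 and 3897 in the inflorescences (162 and 150 CPM) and 672 and 1636 in *A. thaliana* (42.0 and 129 CPM). Its gap between the *A. lyrata* rosettes was the smallest of the 7, at 4.596-fold (4.15 to 5.10). *LNK2* counted 4179 and 204 reads in the *A. lyrata* rosettes (289 and 15.3 CPM), 2674 in the apex (253 CPM), 10166 and 11125 in the inflorescences (359 and 427 CPM) and 4376 and 4625 in *A. thaliana* (274 and 365 CPM). Apart from rosette replicate 2, which was 18.9-fold (16.4 to 21.9) below replicate 1, its levels stayed between 253 and 427 CPM.

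The pseudo-response regulator genes differed most from each other. *PRR9* counted 944 and 14 reads in the *A. lyrata* rosettes (65.4 and 1.05 CPM), 361 in the apex (34.2 CPM), 1780 and 1550 in the inflorescences (62.8 and 59.5 CPM) and 411 and 996 in *A. thaliana* (25.7 and 78.6 CPM). Its ratio between the *A. lyrata* rosettes was the largest of the 8, at 62.3-fold (36.9 to 114). *PRR7* counted 2157 and 1339 reads in the *A. lyrata* rosettes (149 and 100.4 CPM), 1752 in the apex (166 CPM), 2440 and 2426 in the inflorescences (86.1 and 93.1 CPM) and 3340 and 3252 in *A. thaliana* (209 and 257 CPM). It was the member that stayed within 2-fold, being 1.49-fold (1.39 to 1.59) lower in the second rosette.

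The replicate pairs of the other tissues gave smaller ratios. Between the inflorescence libraries all 8 members stayed within 2-fold, with log2 ratios of replicate 2 over 1 from -0.11 to 0.25, while 7.17% of 26369 models were higher and 1.32% lower by 2-fold or more. Between the *A. thaliana* rosettes 5 members were higher in replicate 2 by 2-fold or more and none was lower, against 15% and 4.59% of 19313 genes. These were *RVE8* (4.32-fold, 3.27 to 5.77), *CCA1* (3.72-fold, 3.31 to 4.19), *LNK1* (3.07-fold, 2.81 to 3.36), *PRR9* (3.06-fold, 2.72 to 3.44) and *LHY* (2.44-fold, 1.93 to 3.10). *RVE1* (1.77-fold), *LNK2* (1.33-fold) and *PRR7* (1.23-fold) were also higher, within 2-fold. The median log2 ratio in *A. thaliana* was 1.45 for the members and 0.18 for all genes. As read counts in these libraries chose the members, nothing is read from their count past 2-fold. Of the other *REVEILLE* and *LNK* genes, 3 were also higher in replicate 2, 0 lower and 5 within 2-fold. Of the day and evening clock genes 3 were higher, 1 lower and 7 within 2-fold, with a median log2 ratio of 0.05. As a list, these later genes thus did not stand opposite to the members in *A. thaliana*.

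Genes of the later phases stood the other way round in the *A. lyrata* rosettes. Of 11 day and evening clock genes, 10 had at least 10 reads in these libraries. In rosette replicate 2, 7 of the 10 were higher by 2-fold or more, none was lower and 3 were within 2-fold. Of all models 4.62% were higher and 16.4% lower. The median log2 ratio of these genes was 4.19, against -0.16 for all models. This list too was chosen with earlier results of these data known, so it is no independent contrast. *TOC1*, the evening repressor of *CCA1*, counted 114 reads in replicate 1 (7.89 CPM) and 4541 in replicate 2 (340 CPM), a ratio of 43.1 (35.8 to 52.4). *LUX* counted 14 and 611 reads (47.2-fold, 27.9 to 86.9) and *ELF4* 4 and 188 reads (50.9-fold, 19.5 to 189), while *ELF3*, the remaining part of the evening complex, counted 517 and 997 reads (2.09-fold, 1.88 to 2.33). Thus the genes of that complex were all higher in replicate 2, by very different amounts.

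*PRR5*, which follows *PRR9* and *PRR7* in the daily wave, counted 56 and 1512 reads (29.2-fold, 22.4 to 38.9), opposite to its earlier relatives. *GI*, a day gene that acts on flowering, counted 1080 and 1748 reads and stayed within 2-fold (1.75-fold, 1.62 to 1.89). The blue-light receptor gene *FKF1* counted 3 and 1603 reads, a ratio of 578 with a counting interval of 198 to 2808. *ZTL*, whose transcript is known to cycle little, counted 677 and 620 reads. *FKF1* and *ZTL* were singled out after their values were seen.

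**Figure D2:**
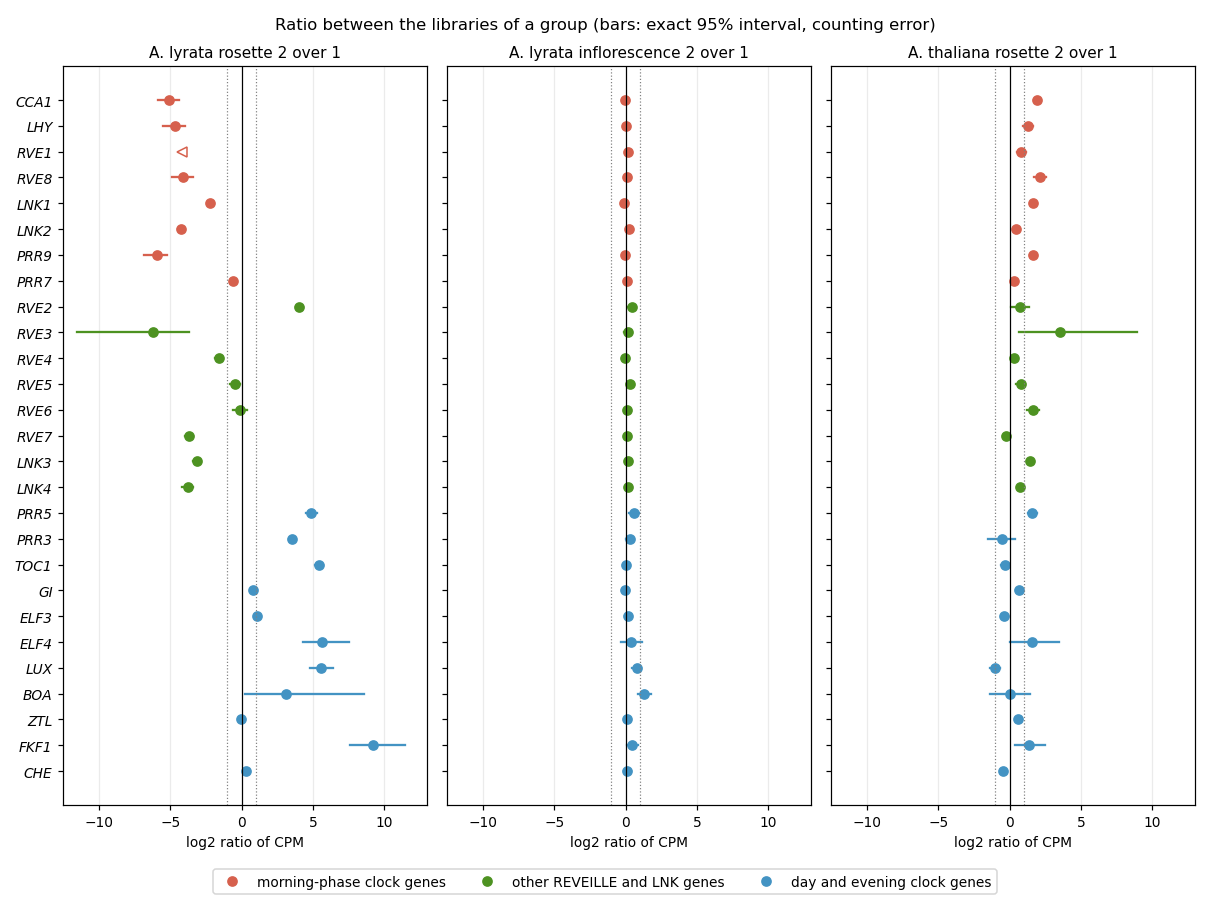
Log2 ratio of CPM, replicate 2 over replicate 1, for the morning-phase clock genes and for 2 lists of other clock genes in 3 pairs of libraries. Points are ratios of single libraries, bars are exact 95% intervals for counting error, dotted lines mark 2-fold, and the open triangle is a ratio with 0 reads set at the floor of 3. In *A. lyrata* rosettes 7 members lie left of the dotted lines and 7 of 10 day and evening genes with at least 10 reads lie right of them.

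The close relatives of the members stood mostly on the same side. Of the 8 other *REVEILLE* and *LNK* genes, 5 were lower by 2-fold or more in rosette replicate 2, 1 was higher and 2 were within 2-fold. Of all models 16.4% were lower and 4.62% higher. *LNK3* counted 1454 and 151 reads and *LNK4* 904 and 61 reads, 8.90-fold and 13.7-fold lower. The exception was *RVE2*, with 146 and 2231 reads, 16.5-fold higher (13.99 to 19.7). *LNK3*, *LNK4* and *RVE2* were singled out after their values were seen. Of 12 clock-controlled output genes 5 were higher, 4 lower and 3 within 2-fold. *GRP7*, an RNA-binding protein gene of the evening, had the most reads of them in both rosettes, at 166 CPM in replicate 1 and 4044 CPM in replicate 2.

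**Figure D3:**
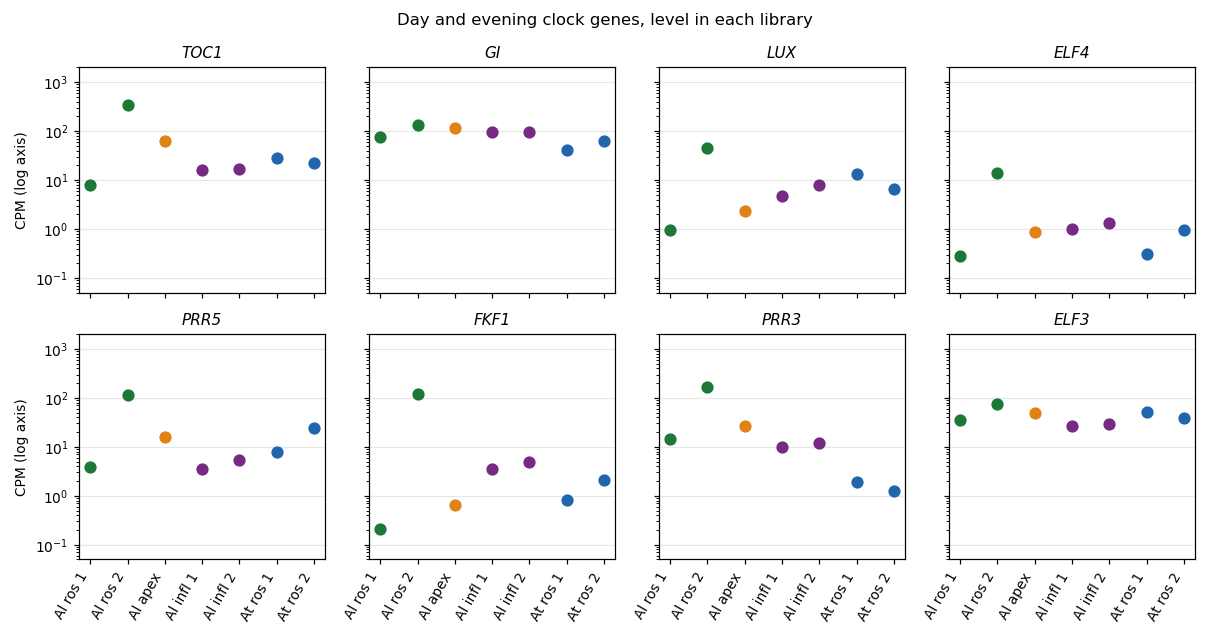
Level of 8 of the 11 day and evening clock genes, picked after their values were seen, in each library as CPM on a log axis, with libraries and colours as in the plot of the morning-phase genes. *A. lyrata* rosette 2 is the highest library for each gene drawn, from 14.1 CPM for *ELF4* to 340 CPM for *TOC1*.

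Other features of these rosette libraries differed as well. The share of reads from 4 shoot meristem markers was 3.88 CPM in replicate 1 and 0 in replicate 2, where all 4 markers had no read, and 5 floral organ markers summed to 4.92 and 0.525 CPM. The 2 root markers summed to 25.3 and 0.075 CPM, with *RHD6*, which defines root hair cells, at 0 in both libraries. Although roots were not a labelled tissue, these markers summed to 43.2 CPM in the apex and 21.2 and 47.6 CPM in the *A. thaliana* rosettes. In the inflorescences they summed to 0.317 and 0.192 CPM. Nearly all of the apex sum came from *BGLU23*, at 43.0 CPM, and in each *A. thaliana* rosette 1 of the 2 root markers had no read. The sums in the apex and in *A. thaliana* thus rest almost wholly on 1 gene, and presence of root tissue was not tested. The 3 leaf markers summed to 23556 and 28136 CPM in the *A. lyrata* rosettes. The part of these differences in the result for the clock genes was not tested. Numbers of counted reads were alike, at 14440792 and 13340336.

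Across the 5 *A. lyrata* libraries, 7 members followed a common pattern. The centred log2(CPM + 1) of the 8 members averaged 0.24 in rosette replicate 1, -2.98 in replicate 2, -0.03 in the apex, and 1.36 and 1.42 in the inflorescences. Pearson's r with that average, a description over 5 libraries of which the average itself includes each member, was between 0.93 (*LHY*) and 1.00 (*RVE8*) for 7 members and -0.11 for *PRR7*. Of 10139 models with a listed ortholog and a mean log2(CPM + 1) of at least 4, 251 reached an r of 0.95. Among the 7 members, *LHY* (0.928) and *RVE1* (0.948) were below that value. The 5 other models most alike were *SSI2* (AL4G40770), a stearoyl-ACP desaturase gene, *OBP4* (AL8G36220), a zinc finger protein gene, AL1G33040 (ortholog AT1G20640), *NCS1* (AL6G12970), a plastid nucleobase transporter gene, and *STO* (AL1G15860), a B-box protein gene, with r from 0.997 to 0.999. *SSI2* ran at 169 and 90.9 CPM in the rosettes, 160 CPM in the apex and 217 and 216 CPM in the inflorescences, a far narrower range than that of the members. With so few libraries, 1 library that stands apart governs such a likeness. Here that library was rosette replicate 2, whose low counts chose the members.

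The comparison of tissues in *A. lyrata* asked how the members' levels in reproductive and apical tissue stood to those in leaves. It was fitted with the quasi-likelihood test of edgeR over all 5 libraries, and fold changes are on the log2 scale after TMM scaling. For the members only the fold changes and their errors are read, since the rosette counts that chose them are an arm of both comparisons. The comparisons share the rosette libraries, and the single apex library was assumed to vary like the others.

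The fold changes of the members had wide errors, the rosettes being far apart. *LHY* was 5.02 ± 1.48 (SE, log2) higher in inflorescences (2 libraries against 2), the largest difference of the 8, and *RVE1* was 3.09 ± 1.33 and *RVE8* 2.02 ± 1.14 higher. *CCA1* differed by 1.44 ± 1.36, *LNK2* by 0.84 ± 1.24, *PRR9* by 0.36 ± 1.503 and *LNK1* by 0.22 ± 0.69, so that these differences were near or below their errors. *PRR7* differed by -1.06 ± 0.21, the smallest error of the 8. In the apex the log2 difference ranged from -1.63 ± 1.81 (*CCA1*) to 1.91 ± 1.49 (*RVE1*).

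The choice of rosette library set the direction for several members. With rosette replicate 1 as the only rosette, the log2 difference of inflorescences was -0.61 for *PRR9*, -0.47 for *LNK1* and -0.08 for *LNK2*. With replicate 2 as the only rosette the same genes stood at 5.19, 1.58 and 4.01. *CCA1* went from 0.49 to 5.43 and *LHY* from 4.08 to 8.61, and for *LHY*, *CCA1*, *RVE8* and *RVE1* the inflorescences were above either rosette. In the apex *CCA1* went from -2.57 against replicate 1 to 2.36 against replicate 2, *LHY* from -1.52 to 3.01 and *PRR9* from -1.65 to 4.15. *LNK1* went from -1.05 to 1.00, *LNK2* from -0.91 to 3.18 and *RVE8* from -0.51 to 3.41. With TMM scaling *PRR7* kept its direction against either rosette, at -1.26 and -0.83 in inflorescences and -0.57 and -0.14 in the apex.

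**Figure D4:**
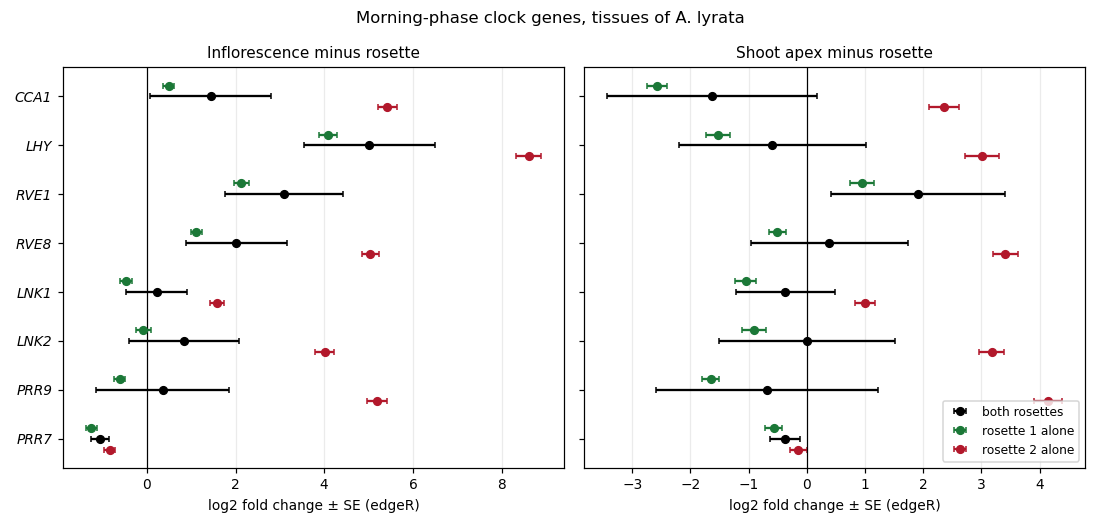
Log2 fold change from edgeR, with SE derived from its F statistic, for each morning-phase clock gene. Shown are inflorescence minus rosette (left) and shoot apex minus rosette (right), with both rosettes (black), rosette 1 alone (green) and rosette 2 alone (red). *RVE1* has no red point because rosette 2 holds no read of it. The red points lie right of the green ones for every gene drawn, and *PRR7* moves least.

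Scaling mattered as well. With library totals in place of TMM, 9819 models were called higher and 2852 lower in inflorescences, against 4479 and 4250 with TMM, and in the apex 5472 and 1122 against 538 and 1535. The median log2 change of all models was 0.68 and 0.67 with library totals and 0.09 and 0.00 with TMM. *PRR7* stood at -0.48 in inflorescences with library totals, and in the apex its difference changed from -0.37 to 0.41.

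Among the 31 other clock genes, edgeR called 2 higher and 3 lower in inflorescences at an adjusted p under 0.05, where 17.6% of 25465 models were called higher and 16.7% lower. *PIF4* and *PIF5*, growth-promoting factors under clock control, fell by 5.66 ± 0.33 (edgeR, adjusted p = 0.00245) and by 2.63 ± 0.34 (adjusted p = 0.00909) on the log2 scale. *CHE*, a factor that represses *CCA1*, fell by 2.80 ± 0.23 (adjusted p = 0.00328). *RVE6*, a close relative of *RVE8*, rose by 1.08 ± 0.19 (adjusted p = 0.0185), and *CDF2*, a Dof repressor of flowering genes, rose by 1.76 ± 0.40 (adjusted p = 0.0340). By list these were 1 of 8 *REVEILLE* and *LNK* genes higher, 1 of 11 day and evening genes lower, and 1 of 12 output genes higher and 2 lower. Without inflorescence replicate 1, *CHE*, *PIF5*, *RVE6* and *CDF2* were no longer called (edgeR, adjusted p of 0.0593, 0.0843, 0.209 and 0.146), and the same held without inflorescence replicate 2.

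In the apex edgeR called 1 of the 31 lower and 0 higher, where 6.03% of models were called lower and 2.11% higher. No gene of these lists was higher at an unadjusted p under 0.05, and DESeq2 also called 0 higher. The gene called was *PIF4*, which fell by 2.48 ± 0.37 (edgeR, adjusted p = 0.0389). It was not called once either inflorescence library was left out (edgeR, adjusted p of 0.208 in each case). The other day and evening genes named above did not pass the edgeR test in inflorescences: *TOC1* stood at -4.08 ± 1.76 and *PRR5* at -4.39 ± 1.66, *LUX* at -2.55 ± 1.63, *ELF4* at -3.25 ± 1.65, *ELF3* at -1.63 ± 0.44 and *GI* at -0.71 ± 0.36. DESeq2 called *PRR5* and *ELF3* lower in inflorescences, and it also called *CHE* and *PRR3*. For *TOC1* the sign turned to 0.53 without rosette replicate 2.

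The comparison between species set the rosettes of *A. thaliana* against those of *A. lyrata* for the same orthologs. The reads were counted on different gene models, so ratios are given for each of the 4 pairs of libraries with no test. Of 18522 ortholog pairs, 7.85% were higher and 9.69% lower in *A. thaliana* by 2-fold or more in all 4 pairs. Of the members 1, *RVE1*, was higher in all 4 pairs, at 8.89 and 15.7 CPM against 4.09 CPM and no read, and 0 were lower. *PRR7* stood at 209 and 257 CPM against 149 and 100.4 CPM, a ratio of 1.40 to 2.56. For the other 6 the second *A. lyrata* rosette lay below both *A. thaliana* rosettes and the first lay between or above them.

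Against the first *A. lyrata* rosette alone the species were closer. The highest *A. thaliana* library was 1.95-fold above that rosette for *CCA1*, 1.26-fold for *LNK2* and 1.20-fold for *PRR9*, and it was 1.82-fold below for *LHY*, 1.27-fold below for *RVE8* and 1.17-fold below for *LNK1*. Without the first *A. lyrata* rosette, 7 members were higher by 2-fold or more in both remaining pairs, as were 17.9% of all ortholog pairs. The low second rosette chose the members, so nothing is read from that count. *RVE1* did not pass 2-fold in all 4 pairs per kb of exon, where the annotated exon lengths enter the ratio. Its closest pair was just short of 2-fold, at 4.41 CPM per kb in *A. thaliana* replicate 1 against 2.21 in *A. lyrata* replicate 1. The *A. thaliana* exon lengths came from RefSeq TAIR10.1 and not from the gene models on which reads were counted, so this result is uncertain.

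Per kb of exon, the order of the members changed between the libraries. Exon lengths for *A. thaliana* were those of RefSeq TAIR10.1, which can differ from the counted gene models, so its values per kb are approximate. In inflorescences *LHY* led with 241 ± 5.54 CPM per kb (SD, n = 2), followed by *LNK2* with 146 ± 17.9, *LNK1* with 59.8 ± 3.33, *RVE8* with 49.9 ± 3.10 and *CCA1* with 42.0 ± 1.47. *PRR9* (32.0 ± 1.22) and *PRR7* (31.9 ± 1.78) overlapped, and *RVE1* was last with 13.9 ± 1.32. *LNK2* led in *A. lyrata* rosette replicate 1 with 107 CPM per kb, in the apex with 93.8 and in *A. thaliana* with 109 ± 22.1, where *PRR7* followed with 72.0 ± 10.4. In rosette replicate 2 the order was headed by *PRR7* with 35.8 CPM per kb and *LNK1* with 12.6, and 5 members were below 1 CPM per kb. *LHY* was last in *A. thaliana* with 3.496 ± 2.07 CPM per kb, where its range overlapped that of *RVE8*, and nearly last in the apex with 5.70, next to *CCA1* with 5.77.

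**Figure D5:**
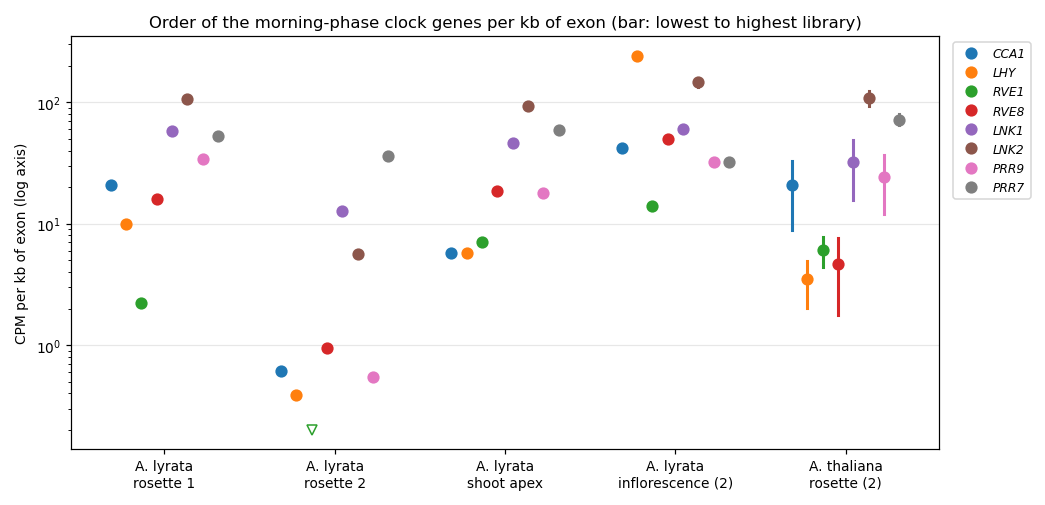
CPM per kb of exon of each morning-phase clock gene on a log axis, for the *A. lyrata* rosettes and apex as single libraries and for the inflorescences and *A. thaliana* rosettes as means of 2 libraries with bars from the lower to the higher library. The open triangle marks no read, drawn at an arbitrary low position. Exon lengths for *A. thaliana* are those of RefSeq TAIR10.1. *LHY* is first in inflorescences and *LNK2* in 3 of the other 4 columns, and *PRR7* is first in rosette 2.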

How the data were processed

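Poly-A RNA of 5 *A. lyrata* and 2 *A. thaliana* libraries was sequenced by the authors as single-end reads without strand, and per the labels FastQC and TopHat were used, with TAIR10 for *A. thaliana*. The tool that counted reads per gene is not given in the sources used here. The deposited tables hold raw counts per gene. They also hold columns that the authors named RPKM, which in the *A. lyrata* table are RPM (1 constant per library) and in the *A. thaliana* table RPKM; these were used only to check the counts. Strand was not kept, so antisense reads cannot be told apart.

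The members and gene lists were chosen with earlier results of these data known. CPM were taken over reads counted in gene models. Ratios of single libraries have exact conditional binomial intervals at 95%. Tissues were compared with edgeR 4.0.16 (glmQLFit, TMM, filterByExpr, Benjamini-Hochberg over 25465 models) in R 4.3.3, after the code was tested on simulated data, with residual df of 2. DESeq2 1.42.0 was an alternative. A paired ortholog was used only where the *A. lyrata* model lists 1 counted *A. thaliana* gene. Genes listed by more than 1 model were not removed. Motifs and proteins came from RefSeq TAIR10.1 with Biopython 1.88, and *A. thaliana* exon lengths from the same RefSeq models. Of 31912 counted *A. thaliana* genes with a RefSeq gene of the same name, 56.3% shared its start or end. Of the other clock genes, those past the test and *TOC1*, *GI*, *ELF3*, *ELF4*, *LUX* and *PRR5* were named by rule, as were the 5 most alike models. A gene at 0 was set at 3 reads per library. Other scalings, filters, thresholds, a replicate block and each library left out were tried.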

Additional observations from a re-analysis of the deposited data

How the results depend on the processing

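The ratios between single libraries moved little: with TMM scaling, a 1.5-fold limit or a minimum of 50 reads, the number of members past the limit stayed within 1.5 times its value of 7, 0 and 5 for *A. lyrata* rosettes, inflorescences and *A. thaliana* rosettes. Between species 1 member passed in all 4 pairs, 0 per kb of exon and 1 to 7 with a rosette left out, the 7 without *A. lyrata* rosette replicate 1. Counts from the tissue test moved far more. Leaving out a library, the models called in inflorescences ranged from 671 to 8014 (higher) and 225 to 6398 (lower), and in the apex from 0 to 4913 and 0 to 5813. Members called, a count from which nothing is read because the rosette counts chose them, were 0 higher and 1 lower in inflorescences and 0 in the apex. With a library left out they ranged from 0 to 7 and 0 to 3 in inflorescences and from 0 to 7 and 0 to 6 in the apex, and other clock genes called from 0 to 10 and 1 to 17, and from 0 to 6 and 0 to 18. The fewest calls came without an inflorescence library. With library totals 9819 models were called higher in inflorescences and 5472 in the apex, and 1 member higher and 0 lower in inflorescences. DESeq2 called 1 member higher in inflorescences, 9 other clock genes lower in inflorescences and 4 in the apex, and 1585 models higher and 3058 lower in the apex. Replicate numbers did not pair the samples (correlation of same-number deviations 0.08 over the rosette and inflorescence pair). With the replicate number as a block, 1 other clock gene was called higher in inflorescences, *RVE6* being lost (edgeR, adjusted p = 0.0515), and in the apex 0 models were called higher, 0 lower and 0 other clock genes lower, *PIF4* being lost (adjusted p = 0.0840). Of the single-gene fold changes, 0 called ones changed sign. Those of other clock genes not called in the main fit changed sign 32 times without 1 library and 15 times under other settings. These sign changes are left out of the calls gained below. Members moved by at least their main SE 16 times without 1 library and 2 times under other settings. Among the other clock genes, 58 calls were gained and 10 lost over the fits without 1 library, and 10 gained and 2 lost over the other settings. At 10556736 to 28347972 counted reads per library, depth limits the low counts most, as in rosette replicate 2 with 0 to 18 reads for 5 members, and in rosette replicate 1 with 3 reads for *FKF1*, 4 for *ELF4* and 14 for *LUX*.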
